A study of Mus musculus with 6 samples.

Results

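The collagen genes of the mouse were followed in liver RNA from 6 ethanol-fed mice, 3 wild-type and 3 Cd44 knockout. A member was any protein-coding gene whose symbol has the form Col, digits, a, digits in the GENCODE annotation of GRCm38, which gave 44 genes among 54532 counted. They were divided by the structure of the assembled protein into 11 fibrillar, 6 basement membrane (type IV), 6 beaded (type VI) and 21 other genes. The knockout mice carried the targeted allele of the strain B6.Cg-Cd44tm1Hbg/J in the whole animal, and the labels do not name the strain, sex or age of the wild-type mice. Cd44 encodes a surface receptor for hyaluronan and osteopontin. Both genotypes had an ethanol diet (5% by volume, Lieber-DeCarli) for 10 days and a gavage of 5 g/kg ethanol on day 11, with the liver removed 9 hours after it. No mouse without ethanol was analysed here, so the comparison is between genotypes under ethanol.

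Collagens are secreted proteins in which alpha chains with a repeating glycine motif wind into a triple helix. Fibrillar collagens such as types I, III and V form the cross-striated fibrils of connective tissue and of liver scars. Type IV collagen forms the sheet-like network of basement membranes, and type VI forms beaded microfilaments close to cells. In the liver the fibrillar chains come mainly from stellate cells and portal fibroblasts, which become collagen-producing myofibroblasts after injury, whereas type XVIII, the precursor of endostatin, is also made by hepatocytes.

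Reads assigned to genes numbered 15429784 to 19293777 per library, and collagen genes took 0.106% to 0.159% of them. Levels are given as CPM, counts scaled to library size with TMM factors. A gene with 0 counts could have a level of up to 3 counts, which is 0.150 to 0.206 CPM here. Cd44 itself had 590, 175 and 568 counts in wild-type mice 1, 2 and 3 and 1, 0 and 0 counts in the knockout mice. The hepatocyte markers Alb, Apoa1, Ttr, Serpina1a and Cyp2e1 had a summed level of 76237 to 95454 CPM over the wild-type mice, against 84327 to 105350 CPM over the knockout mice, and none was at 0.

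RefSeq promoter windows of GRCm38.p6 (250 bases before to 50 after the start site) were found for 35 of the 44 genes. The upstream parts of Col3a1 and Col5a1 are shown because these were the only collagen genes with every knockout mouse below every wild-type mouse. The Col3a1 stretch is chr1:45311288-45311537 and that of Col5a1 is chr2:27886175-27886424, both on the plus strand and outside annotated exons, and capitals mark GGGCGG, the core of a GC box, read on either strand as GGGCGG or CCGCCC.
Col3a1: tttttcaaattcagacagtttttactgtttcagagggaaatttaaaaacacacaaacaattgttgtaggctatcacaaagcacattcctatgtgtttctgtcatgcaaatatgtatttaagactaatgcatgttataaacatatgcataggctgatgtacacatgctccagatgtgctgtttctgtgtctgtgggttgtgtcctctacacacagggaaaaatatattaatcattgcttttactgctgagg
Col5a1: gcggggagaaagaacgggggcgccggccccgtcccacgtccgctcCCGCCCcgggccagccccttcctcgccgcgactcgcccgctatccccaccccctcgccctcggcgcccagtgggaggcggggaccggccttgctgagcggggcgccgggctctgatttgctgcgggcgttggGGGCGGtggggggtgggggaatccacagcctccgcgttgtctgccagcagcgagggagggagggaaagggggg
The Col5a1 stretch held 2 GGGCGG matches and no CCAAT, whereas the A- and T-rich Col3a1 stretch held neither. Over all windows, GGGCGG was present for 22 of the 35 collagen genes (62.9%) and for 38.2% of 27025 genes. CCAAT, the CCAAT box read on both strands, was present for 13 of 35 collagen genes (37.1%) and for 41.1% of all genes. The start sites of Col4a1 (minus strand) and Col4a2 (plus strand) overlap head to head by 22 bases at chr8:11312805-11312826. These bases are shown on the plus strand, with 1 GGGCGG in capitals, because the transcripts of these genes are set against each other below.
Col4a1 and Col4a2: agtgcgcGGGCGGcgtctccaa

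Fibrillar, type IV and type VI genes had mostly lower means in the knockout, the other collagen genes did not, and no single gene passed the adjusted threshold in edgeR. Among the 25 genes with enough counts to be tested, 17 had a lower and 8 a higher mean in the knockout, where 51.1% of all 14145 tested genes had a lower one. The median log2 fold change of knockout relative to wild-type was −0.93 for 8 fibrillar genes, −0.74 for 3 beaded genes, −0.38 for 6 basement membrane genes and 0.0018 for 8 others. It was −0.35 over the 25 collagen genes and −0.0075 over all tested genes.

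By edgeR's quasi-likelihood test with Benjamini-Hochberg adjustment over all genes, 0 of 25 collagen genes had an adjusted p under 0.05, where 0.0141% of all genes did. At an unadjusted p under 0.05, 6 collagen genes were lower, against a background of 7.59% of all genes. These were Col3a1, Col1a1, Col5a2, Col5a1, Col4a1 and Col4a2. Col4a3 was higher at that level, where 5.22% of all genes were, but it entered the test only through its higher knockout counts, so nothing is read from its direction. DESeq2 called 2 collagen genes, Col3a1 and Col5a1, where it called 2.38% of all genes. Both were lower (1.51% of all genes) and 0 were higher (0.873% of all genes). Limma-voom called 0 of all genes, so its 0 for collagens carries no information on them. Every knockout mouse lay below every wild-type mouse for those same 2 of the 25 genes, which is a share near the background of 9.42%. The 6 genes at an unadjusted p under 0.05 became 3 without knockout 1 and 2 without knockout 3. The background of 7.59% belongs to the fit of all 6 libraries. No such share is given for the fits with a library left out, so these drops cannot be set against all genes. The median of the family became −0.11 without wild-type 2 and −0.13 without knockout 3.

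**Figure D1:**
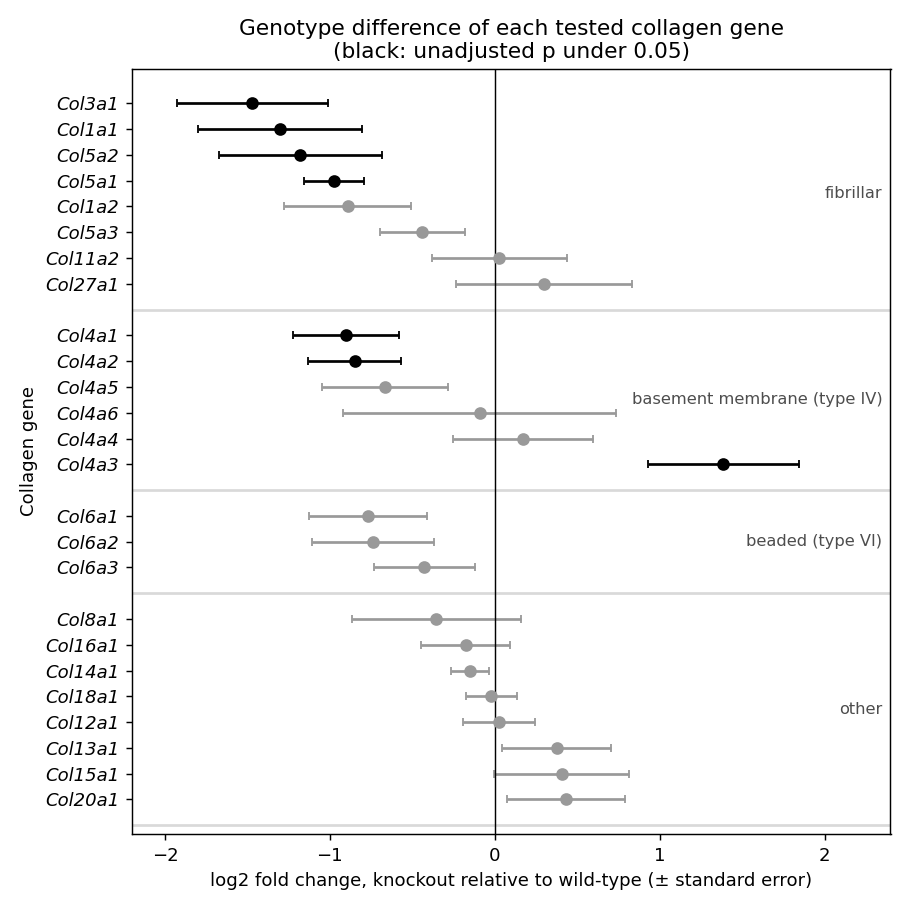
Log2 fold change of knockout relative to wild-type (x axis) for the 25 tested collagen genes (y axis), by structural group, from edgeR. Points are estimates and bars are standard errors; black marks an unadjusted p under 0.05. The 5 chains of types I, III and V other than Col5a3 lie between −1.47 and −0.89, while the 8 other genes at the bottom lie between −0.35 and 0.43.

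The chains of type I and type III collagen, the main fibrillar collagens of liver, had lower mean levels in the knockout, with a wide spread between mice. Col3a1, the single chain of type III collagen (ENSMUSG00000026043; chromosome 1, 45311538 to 45349706), was at 44.5, 64.2 and 119 CPM in wild-type mice 1, 2 and 3 and at 24.1, 41.4 and 16.4 CPM in knockout mice 1, 2 and 3. Its groups did not overlap, but knockout 2 lay just below wild-type 1. The mean went from 75.7 ± 38.3 to 27.3 ± 12.8 CPM (SD, n = 3), a log2 fold change of −1.47 ± 0.46 (standard error; edgeR adjusted p = 0.277, DESeq2 adjusted p = 0.0196). Col1a1, the alpha 1 chain of type I collagen (ENSMUSG00000001506; chromosome 11, 94936224 to 94953042), was at 25.7, 35.4 and 78.1 CPM in wild-type and 17.5, 28.0 and 10.8 CPM in knockout mice. Knockout 2 exceeded wild-type 1, so the groups overlapped (−1.30 ± 0.50, edgeR adjusted p = 0.356). Without wild-type 3, the highest mouse, the Col1a1 value was −0.69. Col1a2, the alpha 2 chain that joins Col1a1 in the type I helix, was at 24.4, 45.7 and 71.0 CPM in wild-type and 22.7, 33.5 and 19.7 CPM in knockout mice. Here too knockout 2 lay above wild-type 1. The Col1a2 difference was −0.89 ± 0.39 (edgeR adjusted p = 0.400), and −0.46 without wild-type 3. In these bulk libraries, fewer cells of a type and less RNA per cell cannot be told apart.

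Type V collagen is a minor fibrillar type that sits inside type I fibrils and limits their width. Of its 3 chains Col5a1 separated the genotypes, and Col5a2 and Col5a3 did not. Col5a1 (ENSMUSG00000026837; chromosome 2, 27886425 to 28039514) was at 20.9, 17.8 and 25.1 CPM in wild-type and 10.2, 12.7 and 9.46 CPM in knockout mice. The wild-type mice stood together and so did the knockout mice, with no overlap. Its log2 fold change of −0.98 ± 0.18 had the smallest p of the 25 genes (unadjusted p = 0.0007, edgeR adjusted p = 0.217, DESeq2 adjusted p = 0.00317). Col5a1 kept a value between −1.11 and −0.84 when any 1 library was left out. Its edgeR adjusted p was 0.0496 without wild-type 2, in a fit that called 151 genes in all. Col5a1 lies on the chromosome of Cd44 at a distance of 74.8 Mb. Col5a2 followed types I and III, at 5.66, 9.40 and 20.4 CPM in wild-type and 5.84, 6.66 and 3.09 CPM in knockout mice. Wild-type 1 lay below knockout 1 and 2 for this gene. Its log2 fold change was −1.18 ± 0.50 (edgeR adjusted p = 0.386), and −0.51 without wild-type 3. Col5a3, a rarer alpha 3 chain, was at 6.85, 9.07 and 5.25 CPM against 4.25, 5.21 and 6.10 CPM, and wild-type 3 was its lowest wild-type mouse (−0.44 ± 0.26, adjusted p = 0.535).

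Of the remaining fibrillar genes, Col27a1, a fibrillar chain best known from cartilage, showed no lower mean. Its level was 22.5, 26.2 and 4.99 CPM in wild-type and 22.6, 19.0 and 24.3 CPM in knockout mice. Wild-type 3 stood far below the other 5 mice, and the log2 fold change of 0.30 ± 0.53 became −0.15 without it. Col11a2, a cartilage chain, was at 1.47, 1.96 and 4.18 CPM in wild-type and 2.85, 2.20 and 2.81 CPM in knockout mice, with overlapping groups. Col11a1 and Col24a1 had at most 8 counts in a library and were not tested, and Col2a1, the main collagen of cartilage, had 0 counts in all 6 libraries.

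**Figure D2:**
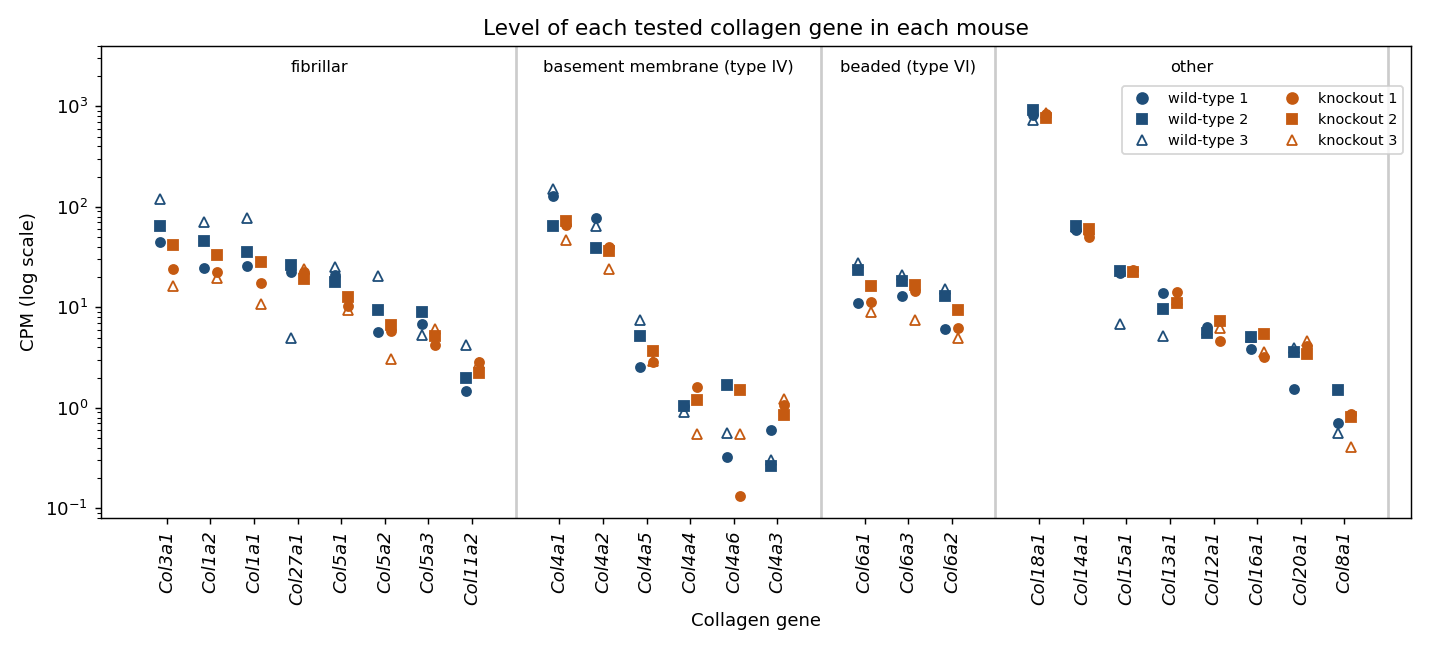
CPM on a log scale (y axis) of the 25 tested collagen genes (x axis) in each of the 6 mice, blue for wild-type and orange for knockout, with 1 symbol per mouse number. Wild-type 3 (open blue triangle) is the highest mouse for Col1a1 at 78.1 CPM and the lowest for Col27a1 at 4.99 CPM.

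The basement membrane chains Col4a1 and Col4a2, which together build the common form of type IV collagen, had lower means in the knockout. Wild-type 2 stood with the knockout mice. Col4a1 (ENSMUSG00000031502; chromosome 8, 11198423 to 11312826) was at 129, 64.0 and 152 CPM in wild-type and 65.5, 72.2 and 46.8 CPM in knockout mice, and Col4a2 (chromosome 8, 11312805 to 11449287) at 77.7, 38.9 and 64.7 CPM against 40.0, 36.5 and 24.1 CPM. Wild-type 2 lay below knockout 1 for both genes, so the groups overlapped. The log2 fold changes were −0.90 ± 0.32 for Col4a1 (edgeR adjusted p = 0.312) and −0.85 ± 0.28 for Col4a2 (edgeR adjusted p = 0.292). Without wild-type 2, Col4a1 passed at −1.18 (edgeR adjusted p = 0.0446) and Col4a2 came to −1.08 (adjusted p = 0.0759). That fit called 151 genes in all, against 2 with all 6 libraries. The summed level of 5 Kupffer cell markers (Clec4f, Vsig4, Cd5l, Marco and Timd4, none at 0) was likewise lowest in wild-type 2 among the wild-type mice, at 595, 177 and 457 CPM against 158 to 172 CPM in the knockout. The 5 monocyte markers summed to 183, 110 and 196 CPM against 62.0 to 85.8 CPM. Lyz2 made up 93.8% of that sum, and Chil3 had 0 counts in knockout 3. All 5 markers of each list had lower knockout means (51.1% of all genes), 4 Kupffer and 3 monocyte markers at an unadjusted p under 0.05 (7.59% of all genes). Their part in the type IV values was not tested.

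The other type IV chains form the networks of kidney and other special basement membranes and were scarce in liver. Col4a5 was at 2.56, 5.16 and 7.44 CPM in wild-type and 2.85, 3.71 and 2.95 CPM in knockout mice, with wild-type 1 the lowest of the 6. Its difference was −0.67 ± 0.38 (edgeR adjusted p = 0.522). Col4a3 was the 1 member higher at an unadjusted p under 0.05, with 11, 4 and 6 counts in wild-type and 16, 17 and 18 counts in knockout libraries. Every knockout mouse lay above every wild-type mouse (0.598, 0.261 and 0.306 CPM against 1.06, 0.852 and 1.23 CPM), as for 8.81% of all tested genes. The log2 fold change was 1.39 ± 0.46 (edgeR adjusted p = 0.281). Col4a3 passed the low-count filter only through the knockout libraries: 3 of these reached its minimum, against 1 wild-type library. The filter thus favoured a difference in this direction. Its exons also overlap those of C430014B12Rik on the other strand along 563 bases, and reads of the overlap cannot be told apart without strand. Col4a4, its head-to-head neighbour, was at 1.03, 1.04 and 0.917 CPM against 1.59, 1.20 and 0.548 CPM. Col4a6 had 6, 26 and 11 counts in wild-type and 2, 30 and 8 counts in knockout libraries, and mouse 2 of each genotype was its highest.

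Type VI collagen, which links cells to the surrounding matrix, had lower means in the knockout that did not pass. Col6a1 (ENSMUSG00000001119; chromosome 10, 76708792 to 76726168) was at 11.0, 23.6 and 27.4 CPM in wild-type and 11.3, 16.1 and 8.91 CPM in knockout mice. Wild-type 1 lay below 2 of the 3 knockout mice (−0.77 ± 0.36, edgeR adjusted p = 0.428; −0.50 without wild-type 3). Col6a2, its helix partner on the same strand (chromosome 10, 76595762 to 76623630), was at 6.09, 13.1 and 15.2 CPM against 6.24, 9.32 and 4.94 CPM (−0.74 ± 0.37, adjusted p = 0.462; −0.46 without wild-type 3). Col6a3, the large alpha 3 chain, was at 12.9, 18.5 and 20.8 CPM against 14.5, 16.7 and 7.54 CPM. The knockout value of Col6a3 rested on knockout 3: the difference of −0.43 ± 0.31 (adjusted p = 0.629) was −0.15 without that mouse. The alternative chains Col6a4, Col6a5 and Col6a6 had at most 18 counts in a library and were not tested.

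Chains that assemble together were compared within each library, where the scaling of libraries plays no part. Col6a1 made up 64.4%, 64.3% and 64.3% of the reads of Col6a1 and Col6a2 in wild-type mice 1, 2 and 3, and 64.4%, 63.4% and 64.4% in the knockout mice. The exact 95% binomial intervals of all 6 shared the range from 60.9% to 67.5%, although the level of Col6a1 itself ran from 8.91 to 27.4 CPM. These intervals cover counting error only. Col1a1 and Col1a2 did not keep such a share. Col1a1 took 51.2%, 43.7% and 52.4% of their sum in wild-type and 43.6%, 45.5% and 35.3% in knockout mice. The interval of knockout 3 (30.8% to 39.9%) did not meet those of the 3 wild-type mice or of knockout 2. Col4a1 took 62.5%, 62.2% and 70.1% of the sum with Col4a2 in wild-type and 62.1%, 66.4% and 66.0% in knockout mice. Wild-type 3 (68.7% to 71.5%) stood above wild-type 1 (60.9% to 64.0%), so this pair did not keep 1 ratio either. Shares of reads depend on transcript length and are not ratios of molecules.

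**Figure D3:**
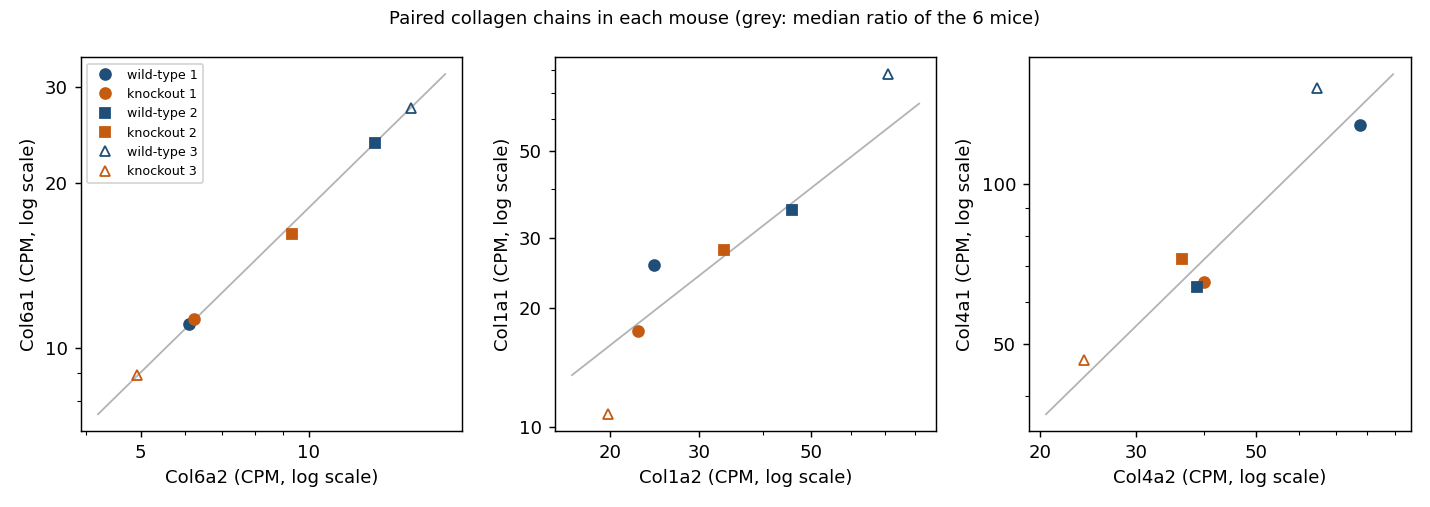
CPM of paired collagen chains in each mouse on log axes, Col6a1 against Col6a2, Col1a1 against Col1a2 and Col4a1 against Col4a2; the grey line is the median ratio of the 6 mice. All 6 mice lie on the line for type VI, with a ratio of counts from 1.73 to 1.81, whereas the Col1a1 to Col1a2 ratio runs from 0.545 to 1.10.

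The most abundant collagen transcript of these livers did not follow the fibrillar genes. Per length of merged exons, Col18a1 (ENSMUSG00000001435; chromosome 10, 77052178 to 77166548) stood highest at a mean level of 117 FPKM, followed over both genotypes by Col4a1 at 11.8, Col14a1 at 8.45, Col4a2 at 7.10, Col3a1 at 5.25 and Col1a1 at 4.97 FPKM. The order below Col4a1 differed by genotype. In wild-type mice Col4a2 (9.13 FPKM) stood above Col14a1 (8.89 FPKM), and in knockout mice Col15a1 (3.62 FPKM) stood above Col1a1 (2.86 FPKM) and Col3a1 (2.78 FPKM). The gap from Col18a1 (105 to 131 FPKM over the 6 mice) to the next gene was larger than the spread between mice, while Col4a1 ran from 6.26 to 20.3 FPKM and overlapped the ranges of Col14a1, Col4a2, Col3a1 and Col1a1. With the longest coding transcript as the length, a choice made after the data were seen, Col3a1 moved from rank 5 to rank 3 at 9.26 FPKM and Col1a2 moved from 2.91 to 6.77 FPKM. Col18a1 was at 826, 923 and 739 CPM in wild-type and 834, 767 and 851 CPM in knockout mice. These values overlapped throughout (log2 fold change −0.02 ± 0.16, edgeR adjusted p = 0.976). Col18a1 accounted for 51.0% to 65.1% of all collagen reads in wild-type and 64.5% to 73.9% in knockout livers.

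Col15a1, the other multiplexin and a chain of the outer basement membrane zone, was steady in 5 mice and low in 1. It was at 22.2, 23.2 and 6.78 CPM in wild-type and 23.3, 22.5 and 23.1 CPM in knockout mice. Wild-type 3 alone stood apart, and the log2 fold change of 0.41 ± 0.41 was 0.02 without it. Col13a1, a transmembrane collagen, had a like order at 13.9, 9.59 and 5.15 CPM against 14.1, 11.2 and 11.9 CPM (0.38 ± 0.33, edgeR adjusted p = 0.703; 0.07 without wild-type 3). Col14a1, which lies on the surface of fibrils and belongs to the fibril-associated group, was even across mice at 59.3, 64.9 and 62.8 CPM against 49.8, 60.1 and 58.6 CPM (−0.15 ± 0.12, adjusted p = 0.661). Col12a1, a related fibril-associated chain, was at 6.36, 5.61 and 5.91 CPM against 4.65, 7.26 and 6.24 CPM. Col16a1, of the same group, was at 3.81, 5.09 and 5.04 CPM against 3.19, 5.41 and 3.63 CPM, and neither separated the genotypes. Col20a1 was at 1.52, 3.59 and 3.92 CPM against 4.12, 3.46 and 4.66 CPM, and its exons overlap a gene model on the same strand, with 483 counts over the 6 libraries, along 79 of 5142 bases (1.54%); the effect of that overlap on the Col20a1 counts was not tested. Col8a1, a short-chain network collagen, had only 82 counts over the 6 libraries.

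Among the 19 untested genes, Col2a1, Col9a1 and Col19a1 had 0 counts in all 6 libraries, and the other 16 reached at most 1.17 CPM in any library. Besides the fibrillar and beaded genes named above they were Col7a1, Col8a2, Col9a2, Col9a3, Col10a1, Col17a1, Col22a1, Col23a1, Col25a1, Col26a1 and Col28a1. These chains are known from cartilage, epidermis, nerve, muscle and other tissues. Together the 19 genes summed to 2.23 to 6.33 CPM per wild-type mouse and to 1.99 to 3.96 CPM per knockout mouse. Of the 25 tested genes, 21 reached the filter's minimum of 0.589 CPM in all 6 libraries, and Col4a3, Col4a4, Col4a6 and Col8a1 did not.

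Summed over members, the fibrillar group was at 152, 210 and 328 CPM in wild-type and 111, 149 and 92.8 CPM in knockout mice. All 3 knockout mice lay below all wild-type mice, with knockout 2 and wild-type 1 only a few CPM apart, and the ratio of the means was 0.511 (0.648 without wild-type 3). Type IV collagen summed to 211, 111 and 225 CPM against 111, 116 and 76.2 CPM, where wild-type 2 lay among the knockout mice. Type VI summed to 30.3, 57.2 and 63.6 CPM against 32.4, 43.7 and 21.7 CPM, where wild-type 1 did. The 20 other genes without Col18a1 summed to 110, 117 and 92.9 CPM against 102, 113 and 110 CPM, with a ratio of 1.02. The wild-type mouse closest to the knockout was thus wild-type 1 for the fibrillar and type VI sums and wild-type 2 for type IV. No p is given for these sums, since the members were chosen with results known.

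**Figure D4:**
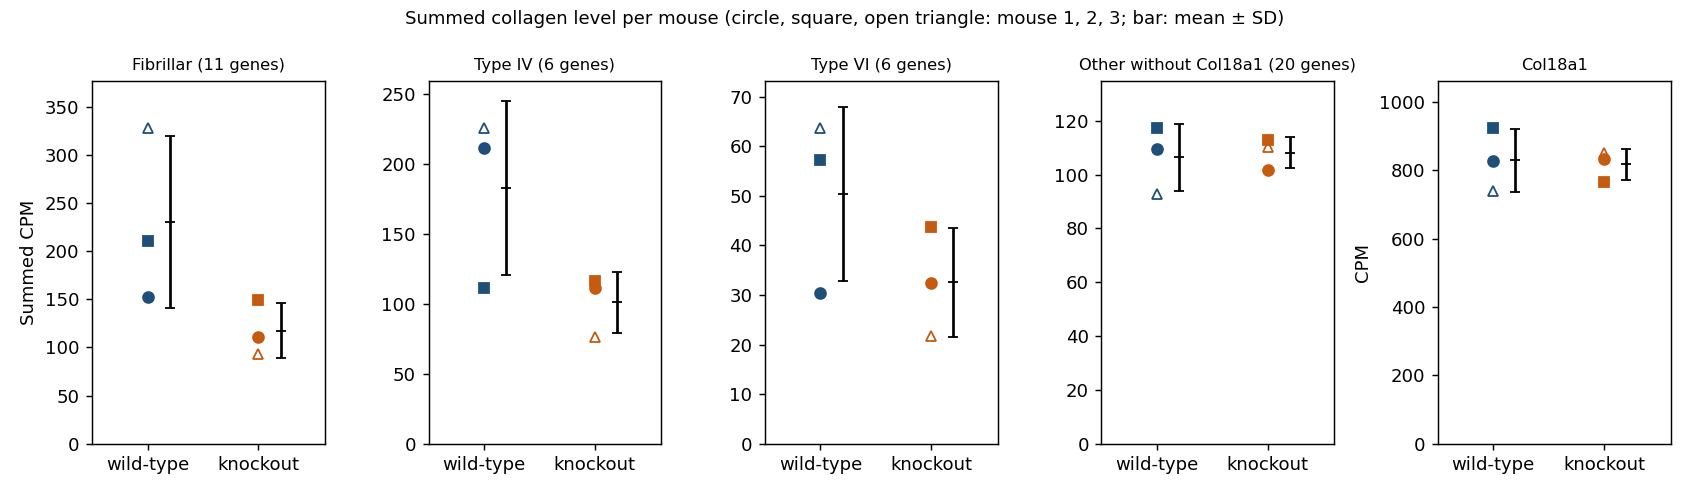
Summed CPM per mouse (y axis) for the fibrillar, type IV and type VI genes and for the other genes without Col18a1, and the CPM of Col18a1, by genotype (x axis); bars are mean ± SD of 3 mice. The fibrillar mean is 230 CPM for wild-type against 118 CPM for knockout mice, while the other genes stood at 107 and 108 CPM and Col18a1 at 829 and 817 CPM.

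The wild-type mice differed among themselves in a way that split the family. Wild-type 3 exceeded the mean of the other 2 wild-type mice 2.71-fold for Col5a2, 2.56-fold for Col1a1, 2.18-fold for Col3a1 and 2.03-fold for Col1a2. In the same mouse Col27a1, Col15a1 and Col13a1 stood at 0.205, 0.299 and 0.438 times that mean. It was the highest wild-type mouse for 12 of the 25 genes and the lowest for 7. Among the knockout mice, knockout 3 was the lowest for 12 of the 25 genes and knockout 2 the highest for 14. No share of all genes is given for these counts, so they are not read as a trait of the family. In wild-type 3 the summed level of 7 sinusoidal endothelial markers was 162 CPM, the lowest of the 6 mice, against 372 and 225 CPM in wild-type 1 and 2 and 191 to 275 CPM in the knockout. Stab2, Clec4g, Oit3, Pecam1 and Kdr were each lowest in this mouse, but the remaining markers Lyve1 and Cdh5 were not. Lyve1 stood at 35.2 CPM there, above every mouse except wild-type 1 (48.6 CPM). For Cdh5, wild-type 3 (23.5 CPM) lay above knockout 3 (22.3 CPM). None of the 7 markers was at 0. The part of these markers in the low values of Col13a1, Col15a1 and Col27a1 was not tested.

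**Figure D5:**
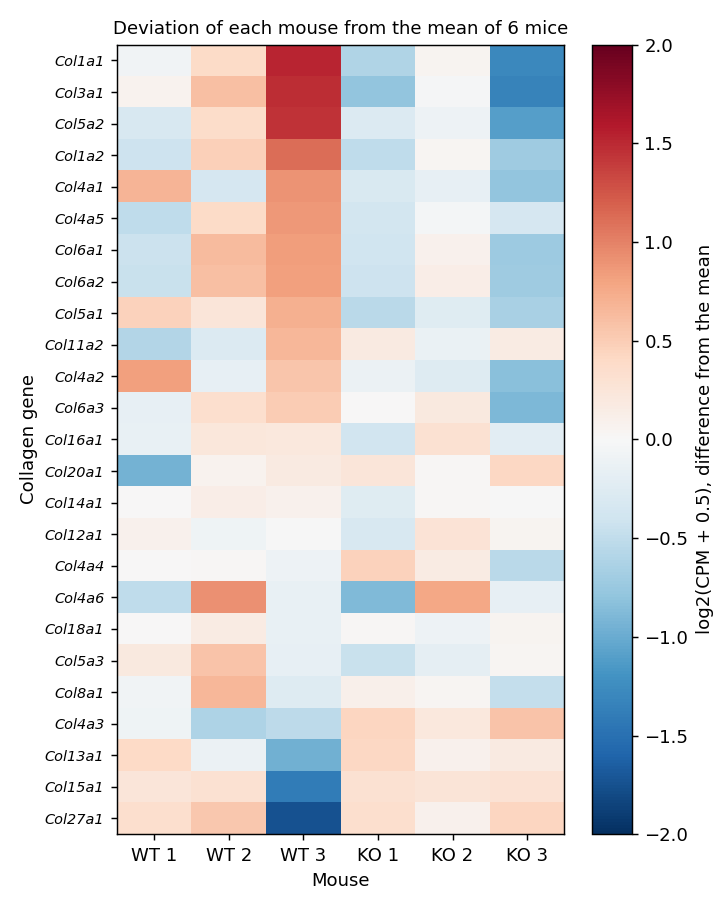
Heat map of the 25 tested collagen genes (rows, ordered by wild-type 3) in the 6 mice (columns); colour is log2(CPM + 0.5) minus the mean of the 6 mice, red above and blue below. Wild-type 3 runs from 1.52 for Col1a1 to −1.74 for Col27a1, and knockout 3 is at −1.34 for Col3a1.

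Markers of the cells that make fibrillar collagen were read in the same libraries, and beside them those of smooth muscle and of cholangiocytes, the bile duct cells. The 10 stellate cell markers (among them Lrat, Reln, Hand2, Pdgfrb and Ecm1) summed to 366 to 456 CPM over the wild-type mice, against 403 to 413 CPM over the knockout mice, with 6 of 10 lower in mean. Ecm1 made up 36.6% of that sum and had a higher mean in the knockout (0.24 ± 0.17). Of the 10 markers 2 were lower at an unadjusted p under 0.05 (7.59% of all genes), Pdgfrb at −0.64 ± 0.22, with no overlap, and Ngfr at −1.06 ± 0.43. Wild-type 3 had the lowest stellate sum and the highest Col1a1, but the markers did not share that order. In this mouse Ecm1 (114 CPM), Reln (47.4 CPM) and Des (6.47 CPM) were lowest of the 6 mice. Lrat (51.5 CPM), Hand2 (13.6 CPM) and Pdgfrb (22.7 CPM) were highest of the 6 there, and the remaining stellate markers were neither. The 5 myofibroblast markers Acta2, Tagln, Postn, Timp1 and Lox summed to 22.4, 54.7 and 36.7 CPM against 15.2, 35.7 and 11.9 CPM. In mouse 2 of each genotype Acta2 alone was at 35.8 and 19.9 CPM. All 5 markers had a lower mean (51.1% of all genes), and 2, Postn and Timp1, had an unadjusted p under 0.05 (7.59% of all genes). Postn, Timp1 and Lox are counted again in the fibril partner, breakdown and processing lists below, so these lists are not separate. The 7 portal fibroblast markers, of which 5 were tested, summed to 16.3 to 35.9 CPM against 11.9 to 27.8 CPM. Smooth muscle markers (Myh11, Cnn1, Des, which the stellate list also holds, and Actg2) were highest in mouse 2 of each genotype, at 85.6 and 50.6 CPM, against 10.3 to 13.5 CPM in the other 4 mice. The 6 cholangiocyte markers, with Spp1 making up 73.0% of their sum, came to 51.9 to 65.2 CPM against 27.5 to 36.4 CPM. No marker of these 5 lists was at 0 in all libraries, and the part of these cells in the collagen values was not tested.

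Enzymes that fold and modify collagen chains inside the cell had lower means in 14 of 19 tested cases. In edgeR 6 of the 19 were lower at an unadjusted p under 0.05 and 0 higher, where 7.59% and 5.22% of all tested genes were, and 0 passed adjustment. The counts of this and the following pathway lists stand beside the same background, in which 51.1% of all genes had a lower mean and 0.0141% passed adjustment. Fkbp14, a prolyl isomerase of the endoplasmic reticulum, was at 13.1, 10.6 and 10.9 CPM against 7.44, 7.71 and 7.27 CPM (log2 fold change −0.63 ± 0.16, edgeR adjusted p = 0.220). Crtap, a partner of prolyl 3-hydroxylase, gave −0.75 ± 0.23, the isomerase Ppib −0.38 ± 0.13 and the collagen chaperone Serpinh1 −0.48 ± 0.18. In each of these 4 genes, named for their smallest p, every knockout mouse lay below every wild-type mouse. That held for 7 of the 19 tested genes, where it did for 9.42% of all genes. For 1 of the 19, Plod1, every knockout mouse lay above every wild-type mouse (8.81% of all genes). Of 11 tested genes for processing and crosslinking outside the cell, all 11 had a lower mean (51.1% of all genes), 4 at an unadjusted p under 0.05 (7.59% of all genes), and 0 passed adjustment in edgeR. The lysyl oxidases Loxl4 (−1.34 ± 0.31) and Loxl2 (−1.12 ± 0.32) led this list, followed by the procollagen C-proteinase enhancers Pcolce (−0.58 ± 0.22) and Pcolce2 (−1.35 ± 0.51). DESeq2 called Loxl4 lower (adjusted p = 0.0151), where it called 1.51% of all genes lower.

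Proteins that bind collagen outside the cell gave mixed values. Of 13 tested fibril partners, 8 had a lower and 5 a higher mean, where 51.1% of all genes had a lower one, and 2 were lower at an unadjusted p under 0.05, where 7.59% of all genes were. Sparc, a collagen-binding matrix protein, was at 116, 93.2 and 122 CPM in wild-type and 68.9, 70.5 and 49.0 CPM in knockout mice, with no overlap (−0.82 ± 0.18; edgeR adjusted p = 0.217, DESeq2 adjusted p = 0.00992). Postn, or periostin, gave −0.84 ± 0.28, the proteoglycan Lum −0.82 ± 0.37 and Prelp 0.24 ± 0.17. Of 10 tested collagen receptors 9 had a lower mean (51.1% of all genes) and 4 were lower at an unadjusted p under 0.05 (7.59% of all genes). The inhibitory leukocyte receptor Lair1 gave −1.01 ± 0.28, the kinase Ddr1 −1.62 ± 0.57, and the endocytic receptors Mrc2 and Mrc1 −0.82 ± 0.31 and −0.56 ± 0.23. For Ddr1, wild-type 3 stood apart at 28.5 CPM, and the other 5 mice were between 4.12 and 7.61 CPM.

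All 10 tested genes of collagen breakdown and its inhibitors had a lower mean (51.1% of all genes), and 5 were lower at an unadjusted p under 0.05 (7.59% of all genes). They included both proteases and an inhibitor: the elastase Mmp12 (−2.39 ± 0.25, edgeR adjusted p = 0.0607), the collagenase Mmp13 (−1.27 ± 0.27, adjusted p = 0.217), the gelatinase Mmp9 (−1.65 ± 0.42) and the inhibitor Timp1 (−2.50 ± 0.52). DESeq2 called 3 genes of this list lower, Mmp12, Mmp13 and Timp1, where it called 1.51% of all genes lower. Mmp13 was at 2.45, 3.00 and 3.16 CPM in wild-type and 1.19, 1.20 and 1.17 CPM in knockout mice. Of 16 basement membrane partners, 11 had a lower and 5 a higher mean (51.1% of all genes lower), and 6 were lower at an unadjusted p under 0.05 (7.59% of all genes). The linker Nid1 was at 162, 70.6 and 210 CPM in wild-type and 68.2, 83.3 and 60.3 CPM in knockout mice (−1.06 ± 0.37, adjusted p = 0.306). Wild-type 2 thus stood with the knockout mice for Nid1 as it did for Col4a1. Nid2 gave −0.87 ± 0.30, the laminin chain Lama5 −0.69 ± 0.26 and the proteoglycan Hspg2 −0.61 ± 0.24. In these fibril partner, receptor, breakdown and basement membrane lists 0 genes passed adjustment in edgeR, and 0 were higher at an unadjusted p under 0.05.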

How the data were processed

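Poly(A) RNA of liver was sequenced as 1 library per mouse, 3 per genotype, and groups were taken from the titles. The authors deposited raw read counts, 1 value for each Ensembl gene and library. The submitters' processing notes name HISAT2 2.0.5, StringTie 1.3.3b, featureCounts 1.5.0-p3 and the build GRCm38.p6. The sources used here do not give the strand setting or the treatment of multi-mapping reads, and no strand-marking step is described per the labels' protocols. Of 54682 rows, 54495 matched GENCODE M21; 150 rows without a gene name (0.273% to 0.509% of a library's counts) were left out.

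Counts were fitted in R 4.3.3 with edgeR 4.0.16 (filterByExpr, TMM, robust quasi-likelihood F test, genotype only) over 14145 genes, with Benjamini-Hochberg adjustment and a threshold of 0.05; DESeq2 1.42.0 and limma 3.58.1 were alternatives. Each standard error is the absolute log2 fold change over the root of its F statistic. FPKM used merged exon lengths. Only the edgeR fit was tested on simulated data, with 200 genes changed 2- or 4-fold. It recovered 42.5% of the 2-fold and 85.3% of the 4-fold changes, and 9.32% of its calls were false. The simulation drew genes independently, with the same dispersion in both genotypes. The real wild-type libraries differed more among themselves than the knockout libraries, so these rates need not hold for the real data.

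The members and gene lists were chosen with earlier results of these data known. Values per mouse are given for members of types I, III, IV, V and VI and others with p under 0.05 or mean log2 CPM of at least 1; up to 4 genes per list are named by smallest p. Col4a3 to Col4a6, Col8a1 and single mice were described beyond this where counts called for it. Mice are separate animals by their titles. With 3 against 3, an exact permutation test cannot go below p = 0.1. Other settings were RLE scaling, other filters, mouse number as a block, a non-robust fit, the older quasi-likelihood fit (added after the data were seen), protein-coding genes only, and each library left out. The planned description of collagen protein repeats was not run.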

Additional observations from a re-analysis of the deposited data

How the results depend on the processing

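The family count of 0 at an adjusted p under 0.05 in edgeR became 2 with DESeq2 (Col3a1 and Col5a1). It ran from 0 to 2 when 1 library was left out, with 2 (Col4a1 and Col5a1) without wild-type 2. The fit without wild-type 2 called 151 genes in all, against 2 in the main fit, so the gain was not particular to collagens. The 6 genes lower at an unadjusted p under 0.05 were 3 with mouse number as a replicate block and 2 to 8 over the left-out libraries. No share of all genes at that level is given for these other fits, so the shifts cannot be set against the background. The count of all genes called was 2, and it was 6 without a low-count filter, 1 with the replicate block, 1 with the older quasi-likelihood fit, 330 with DESeq2, 0 with limma-voom and 0 to 151 over the left-out libraries. Deviations of same-numbered mice correlated at −0.0175 to −0.01 across genes, and those of the other pairs at −0.0649 to 0.0789. A correlation over all genes cannot decide whether a pairing touched only some genes. The family median ran from −0.50 to −0.11 over the left-out libraries, and the count of 2 collagen genes with every knockout mouse below every wild-type mouse became 3 to 10. It was 10 without wild-type 1 (15.1% of all genes), 4 without wild-type 2 (17.6%) and 6 without knockout 2 (14.8%), against 9.42% of all genes with 6 mice. The cause of these shifts was not tested.

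When a library was left out, signs reversed only among genes with a main value between −0.35 and 0.30. Col11a2 ran from −0.25 to 0.61, Col12a1 from −0.13 to 0.19, Col18a1 from −0.0973 to 0.0717 and Col27a1 from −0.15 to 0.69. Col4a4 ran from −0.13 to 0.48, Col4a6 from −0.50 to 0.81 and Col8a1 from −0.61 to 0.16. Col8a1, with 82 counts over the 6 libraries, was also the gene at the family median of −0.35. Col3a1, Col1a1, Col1a2, Col5a1, Col5a2, Col4a1, Col4a2, Col6a1, Col6a2 and Col6a3 stayed lower in the knockout in all 15 alternative fits. The ratio of summed levels moved by less than its spread between mice for each group, under RLE scaling and with any library left out.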
